A study of Homo sapiens with 3 samples.

Results

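The genes described here are 35 genes of glucose breakdown and of the response to low oxygen, taken by symbol from a table of read counts for 57268 gene identifiers. They fall into 17 glycolytic enzymes, 5 glucose transporters and regulators of glycolytic flux, 10 targets of hypoxia-inducible factor (HIF) outside glycolysis, and a group of 3 made of HIF1A and 2 of its prolyl hydroxylases. All 35 symbols were found, each on 1 row. The measurements are RNA sequencing of HEK293T, an established cell line derived from human embryonic kidney, and each of the 3 groups is a single library. The cell line field of the labels gives HEK 293T, while the sample titles give HEK293. The first library came from cells overexpressing ADAR2 together with SRSF9, the next from cells overexpressing ADAR2 alone, and the last from control cells with no overexpression. ADAR2, the product of ADARB1, converts adenosine to inosine in double-stranded RNA, and SRSF9 is a splicing factor of the serine/arginine-rich family. The study was about the effect of SRSF9 on editing by ADAR2. Whether the control cells received an empty plasmid is not given in the sources used here, so the overexpressed protein and the act of overexpression cannot be told apart.

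Glycolysis splits glucose into pyruvate in the cytosol and yields ATP without oxygen, and lactate dehydrogenase then turns pyruvate into lactate. HIF-1, a dimer of the HIF1A product and ARNT, raises transcription of many glycolytic genes and of genes for blood vessel growth, mitophagy and collagen maturation when oxygen is short. When oxygen is present, prolyl hydroxylases of the EGLN family mark the HIF1A protein for destruction, so HIF activity is set mainly at the protein level and not by the amount of HIF1A transcript. HIF dimers bind DNA at sites with the core letters ACGTG or GCGTG. Proliferating lines such as HEK293T run glycolysis at a high rate even in normal air.

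The libraries held 97875935 reads with ADAR2 and SRSF9, 132887974 with ADAR2 and 152878282 in the control. Levels are given as CPM, reads per 1000000 reads of scaled library size, and a log2 ratio compares 2 libraries on the log2 scale. The targeted transcripts followed the labels: ADARB1 stood at 13650 and 16100 CPM in the 2 overexpressing libraries, against 114 CPM in the control, and SRSF9 at 18290 CPM with both proteins, against 369 CPM with ADAR2 alone. All 7 HEK293 markers examined were measured, whereas 1 of 5 fibroblast markers (COL1A1) and 0 of 3 hepatocyte markers reached a mean of 1 CPM. With 1 library per group no difference has a replicate check and no p-value is given. The 95% intervals printed after ratios are exact Clopper-Pearson intervals and cover counting error only. A gene counts as measured at a mean of 1 CPM or more over the 3 libraries. Of the 35 genes, 34 were measured, 32 of them at 10 CPM or more, among 16072 measured genes in all.

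The most abundant of the 35 genes were enzymes, and the 17 enzymes together took 1.27% of all reads with both proteins, 1.32% with ADAR2 and 1.32% in the control. Not every enzyme was abundant: ALDOC, at a mean of 17.9 CPM over the 3 libraries, lay below HIF targets such as NDRG1 at 114.6 CPM. ENO1, the ubiquitous enolase, had 241927 reads with both proteins, 340260 with ADAR2 and 382994 in the control, which correspond to 2524, 2534 and 2479 CPM. GAPDH, the glyceraldehyde-3-phosphate dehydrogenase that is often used as a reference transcript, had 171839, 236570 and 267769 reads, or 1792, 1762 and 1733 CPM in the same order of libraries. The 3 libraries were close to each other for both genes. To compare genes with each other, levels were divided by the summed exon length of each gene. GAPDH then led the control library with 581 CPM per kb, followed by ENO1 with 470, LDHB with 463, ALDOA with 404 and TPI1 with 361 CPM per kb. The enzymes of the first steps stood far lower: GPI, the glucose-6-phosphate isomerase, had 31.2 CPM per kb, the 3 phosphofructokinase genes 19.7 to 21.5 and the hexokinases HK1 and HK2 18.0 and 14.8 CPM per kb. The highest and lowest of the 17 enzymes, GAPDH and ALDOC, were 93.7-fold apart per kb in the control. With the longest transcript as length, ENO1 with 973 and GAPDH with 924 CPM per kb exchanged places at the top.

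**Figure D1:**
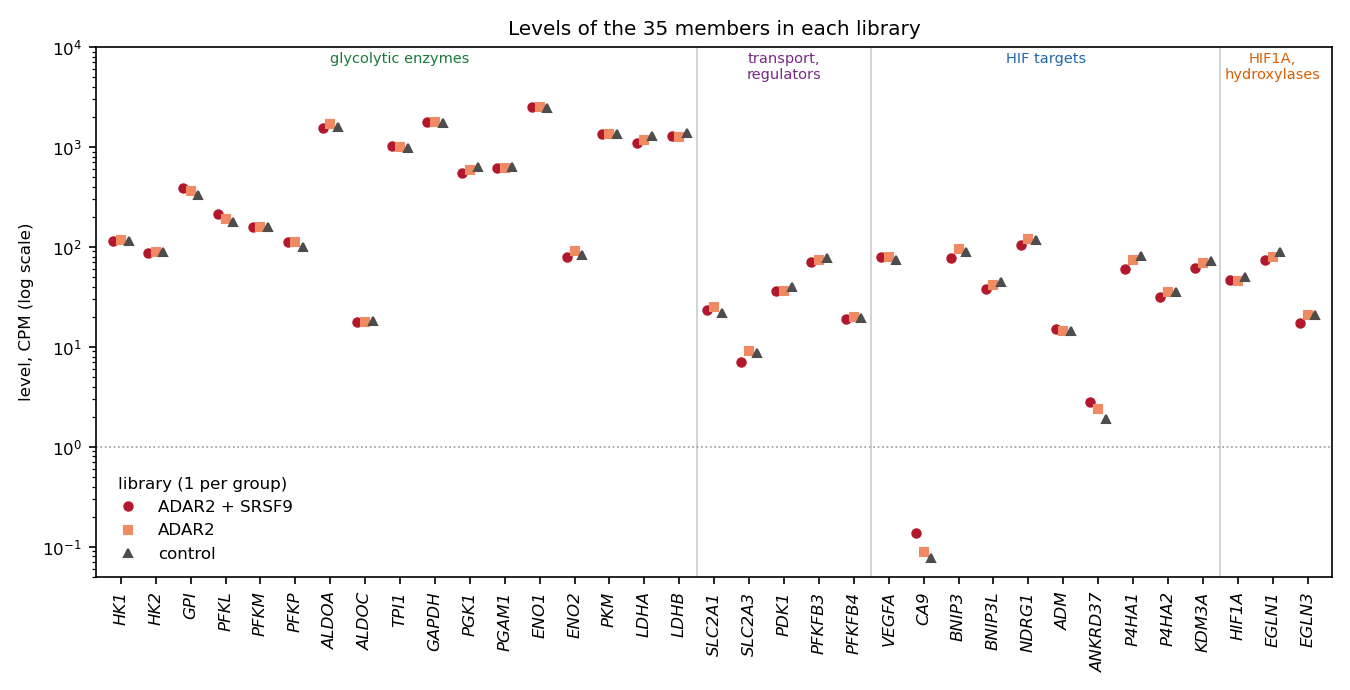
Levels of the 35 genes in CPM on a log axis, with 1 point per library and the dotted line at 1 CPM. The points of the 3 libraries nearly coincide for most genes, and CA9 alone lies below the line, at 0.0777 to 0.136 CPM.

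Several steps are served by paralogues, and the highest one was the same in the 3 libraries for every pair examined per kb, but not for the phosphofructokinase trio. ALDOA, the muscle and ubiquitous aldolase, made up 98.5% of the summed ALDOA and ALDOC level per kb with both proteins, 98.6% with ADAR2 and 98.5% in the control. ENO1 made up 96.3%, 95.8% and 96.0% of the enolase pair, the rest being ENO2, the neuronal enolase. LDHB, the lactate dehydrogenase subunit that prevails in heart, exceeded LDHA, the subunit that prevails in skeletal muscle and is a HIF target. Its share of the pair per kb was 71.4% with both proteins, 69.1% with ADAR2 and 69.1% in the control, and 65.3%, 62.8% and 62.8% with the longest transcript as length. The hexokinases were close to even, with HK1 at 56.3%, 55.5% and 54.9%. The phosphofructokinase genes PFKL, PFKM and PFKP, named for liver, muscle and platelet, held 34.8%, 31.4% and 33.8% with both proteins, 32.4%, 32.8% and 34.7% with ADAR2, and 31.8%, 34.8% and 33.4% in the control. PFKL was thus highest with both proteins, PFKP with ADAR2 and PFKM in the control, by small margins. PFKM was the highest of them in all 3 libraries when the longest transcript was used as length, with 36.7% with both proteins, 38.1% with ADAR2 and 40.3% in the control, so which gene led with both proteins and with ADAR2 depended on the length chosen.

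**Figure D2:**
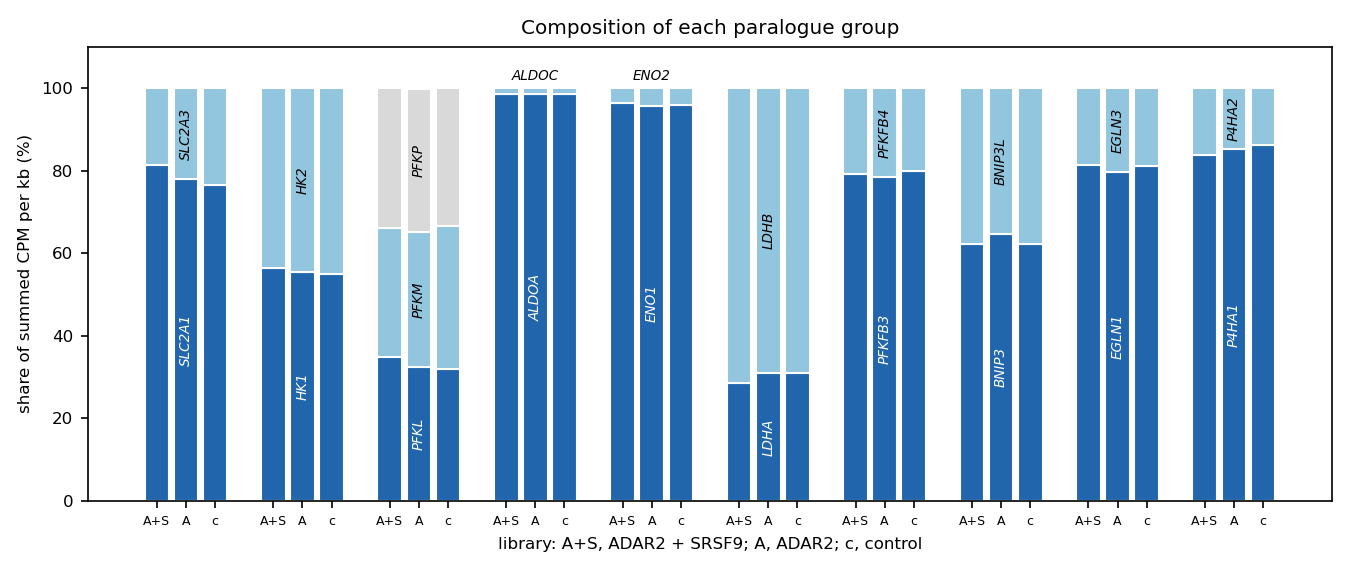
Share of each paralogue in the summed CPM per kb of its group, in percent, for the ADAR2 and SRSF9 library (A+S), the ADAR2 library (A) and the control (c). Within each pair the same gene is highest in all 3 libraries, and the SLC2A1 share runs from 76.5% in the control to 81.3% with both proteins.

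Of the glucose transporter genes among the members, SLC2A1, the GLUT1 transporter of most dividing cells, had the higher level per kb. It stood at 23.6 CPM with both proteins, 24.9 CPM with ADAR2 and 21.8 CPM in the control. SLC2A3, the high-affinity transporter GLUT3 of neurons, had 677, 1227 and 1349 reads, or 7.06, 9.14 and 8.73 CPM. The library with both proteins was the lowest of the 3 for SLC2A3. Among flux regulators, PFKFB3 and PFKFB4 make fructose-2,6-bisphosphate, which activates phosphofructokinase. PFKFB3 stood at 71.0, 73.5 and 77.5 CPM and held 79.1%, 78.5% and 79.9% of the pair per kb, again in the order both proteins, ADAR2, control. PDK1, the kinase that shuts off pyruvate dehydrogenase, stood at 35.9, 36.5 and 39.9 CPM.

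All HIF targets examined except CA9 were measured. CA9, the tumour-associated carbonic anhydrase of hypoxic cells, had 13 reads with both proteins, 12 with ADAR2 and 12 in the control, or 0.136, 0.0894 and 0.0777 CPM. These counts are above the level of 3 reads (0.0313, 0.0223 and 0.0194 CPM) but too few to compare the libraries, and 38.5% of the CA9 exon length overlaps ARHGEF39 on the opposite strand. VEGFA, the main growth factor of blood vessels, stood at 79.2, 80.02 and 74.6 CPM in the same order. ADM, the vasodilator peptide adrenomedullin, stood at 15.02, 14.5 and 14.4 CPM. HIF1A itself was at 46.4, 45.1 and 50.3 CPM. Of its hydroxylases, EGLN1, the main oxygen sensor of the family, was at 74.8, 79.9 and 87.9 CPM, and EGLN3, itself induced by HIF, at 17.4, 20.6 and 20.8 CPM. EGLN1 was lowest with both proteins and highest in the control. With the GC trend described below removed, KDM3A and BNIP3L, also in that order, had log2 ratios of 0.03 and 0.05 in ADAR2 against the control and so left it. Other members entered it, such as NDRG1, at -0.02 in ADAR2 against the control and -0.20 in both proteins against ADAR2.

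The library with both proteins was set against ADAR2 alone to compare cells with and without added SRSF9. ADARB1 itself stood at 0.848 times its ADAR2 level there, so added SRSF9 and less ADARB1 transcript cannot be told apart. Here the HIF targets outside glycolysis stood lower while the enzymes as a group did not. The median log2 ratio of the 9 measured HIF targets was -0.15, against 0.01 for all 16072 measured genes, and that of the 17 enzymes was 0.01. Summed over the 10 targets, reads stood at 0.885 times the ADAR2 level (95% counting interval 0.875 to 0.896), and summed over the 17 enzymes at 0.988 times (0.986 to 0.990). With the trend in GC content removed the target median was -0.14. These are differences of less than 1.2-fold for most genes, between 2 libraries. In bulk RNA, fewer cells with a transcript and less of it per cell cannot be told apart.

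P4HA1, the catalytic subunit of the collagen prolyl 4-hydroxylase, was the lowest of the HIF targets. It had 5748 reads with both proteins and 9897 with ADAR2, or 59.96 and 73.7 CPM, a ratio of 0.813 (0.787 to 0.840). BNIP3, a mitochondrial receptor for mitophagy, had 7449 reads with both proteins and 12728 with ADAR2, or 77.7 and 94.8 CPM, a ratio of 0.820 (0.796 to 0.843). These 2 genes and SLC2A3, at 0.773 times (0.702 to 0.849), were the only measured members lower by 1.2-fold or more. That is 3 of 34, beside 8.21% of all measured genes, so this count is near that background. Of the 12765 measured protein-coding genes alone, 309 were lower by 1.2-fold, a smaller share. Among genes of 10 CPM or more, P4HA1 and BNIP3 were 2 of 32, beside 3.0% of such genes.

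The other targets lay closer to the ADAR2 library. NDRG1, a differentiation-linked gene strongly induced by hypoxia, stood at 105.0 CPM with both proteins and 121 CPM with ADAR2, 0.868 times (0.847 to 0.890). KDM3A, a histone H3 lysine 9 demethylase, was at 0.892 times (0.863 to 0.922), and P4HA2, the other catalytic subunit of collagen prolyl hydroxylase, at 0.902 times (0.861 to 0.944). BNIP3L, the relative of BNIP3 also called NIX, was at 0.915 times (0.877 to 0.954). VEGFA at 0.989 times (0.961 to 1.02) and ADM at 1.03 times (0.966 to 1.11) could not be told from the ADAR2 library beyond counting error. ANKRD37, a small ankyrin-repeat gene, went the other way, with 266 reads and 319 reads, or 2.78 CPM with both proteins and 2.38 CPM with ADAR2. Its interval of 0.989 to 1.38 included 1, and 35.2% of its exon length overlaps UFSP2 on the opposite strand. In all, 6 of the 9 measured targets lay in the lowest 20% of log2 ratios among all measured genes, and 6 of the 8 with 10 CPM or more lay in the lowest 20% of genes at that level.

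**Figure D3:**
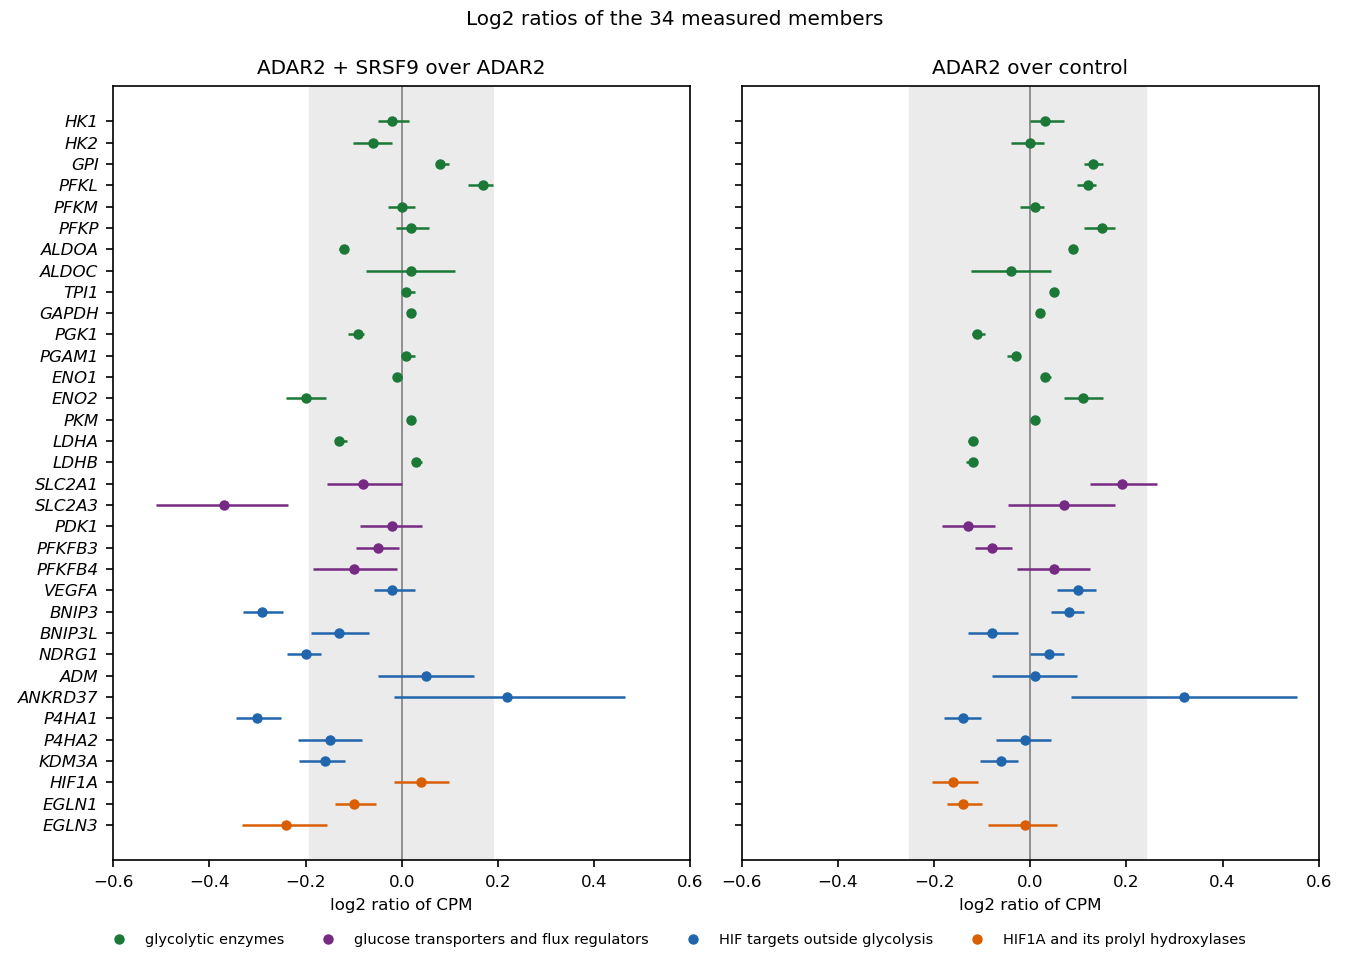
Log2 ratios of CPM for the 34 measured genes, ADAR2 and SRSF9 over ADAR2 on the left and ADAR2 over control on the right, with 95% counting intervals as bars. The grey band spans the 5th to the 95th percentile of the 10362 genes with 10 CPM or more (-0.19 to 0.19 left, -0.25 to 0.24 right). P4HA1, BNIP3, NDRG1, ENO2, EGLN3 and SLC2A3 lie below it on the left only, and ANKRD37 lies above it on both sides. SLC2A3 and ANKRD37, at means of 8.31 and 2.35 CPM, are not among the genes that set the band. On the left the 5th percentile of all measured genes was -0.43, below SLC2A3.

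Within the glycolytic pathway the lower members were a subset. ENO2 stood at 78.6 CPM with both proteins and 90.3 CPM with ADAR2, 0.871 times (0.846 to 0.897), while ENO1 was at 0.996 times (0.991 to 1.0). LDHA stood at 1083 and 1182 CPM, 0.916 times (0.909 to 0.924), while LDHB was at 1.02 times (1.02 to 1.03). ALDOA, 42.3% of whose exon length overlaps another gene on the same strand, was at 0.92 times (0.914 to 0.926) and PGK1, the phosphoglycerate kinase that makes the first ATP of the pathway, at 0.936 times (0.926 to 0.947). These 4 were the enzymes in the lowest 20% of log2 ratios among genes of 10 CPM or more, 4 of 17. By construction 20% of such genes lie there, so this count is near the background. Among all measured genes, 3 of the 17 enzymes lay in the lowest 20%. In other cell types ENO2, LDHA, ALDOA and PGK1 are known as HIF targets, but so are enzymes that did not stand lower here, such as GAPDH at 1.02 times (1.01 to 1.02). PFKL was the highest enzyme, at 214 CPM with both proteins and 191 CPM with ADAR2, 1.12 times (1.10 to 1.14), and it has the highest GC content of the 35 transcripts, 64.1%. No member was higher by 1.2-fold, where 5.72% of all genes were, and 0 members passed 1.5-fold in either direction, beside 3.39% of all genes. Among the 10362 genes of 10 CPM or more, 1.31% were higher by 1.2-fold. Of such genes, 48 were lower and 15 higher by 1.5-fold.

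The regulators of HIF did not stand together. HIF1A was at 1.03 times its ADAR2 level (0.989 to 1.07), an interval that includes 1. EGLN1 was at 0.936 times (0.908 to 0.964) and EGLN3 at 0.845 times (0.794 to 0.898). All 5 transporters and flux regulators had ratios below 1, from SLC2A3 at a log2 ratio of -0.37 to PDK1 at -0.02. The interval of PDK1, 0.942 to 1.03, included 1. Of the 34 measured members 21 (61.8%) had a ratio below 1, against 46.3% of all measured genes, and 30 did when libraries were scaled by plain totals, with which the median log2 ratio of all genes was -0.033 in place of 0.012. GAPDH, LDHB and HIF1A were among the 9 members whose sign changed with plain totals.

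The promoters of several of these genes carry the letters that HIF recognises, and pieces of 60 bases upstream of the start are shown here for genes that stood lower, and for ANKRD37 and GAPDH, which did not. They come from RefSeq on GRCh38.p14, 5′ to 3′ along the gene's strand, and capitals mark ACGTG or its reverse complement CACGT, not the other core GCGTG. The marked forms overlap in CACGTG, the E-box that other factors also bind.
P4HA1: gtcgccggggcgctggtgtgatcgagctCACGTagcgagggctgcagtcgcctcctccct
BNIP3: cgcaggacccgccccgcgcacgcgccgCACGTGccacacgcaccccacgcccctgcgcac
ENO2: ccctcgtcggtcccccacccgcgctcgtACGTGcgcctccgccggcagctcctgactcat
LDHA: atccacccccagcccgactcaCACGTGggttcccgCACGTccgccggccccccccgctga
PGK1: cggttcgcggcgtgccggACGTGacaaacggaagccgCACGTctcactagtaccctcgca
ANKRD37: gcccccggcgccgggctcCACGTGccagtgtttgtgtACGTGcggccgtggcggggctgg
GAPDH: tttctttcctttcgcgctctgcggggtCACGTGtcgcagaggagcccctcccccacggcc
The pieces lie at chr10:73096921-73096980 (minus strand) for P4HA1, chr10:131982025-131982084 (minus) for BNIP3, chr12:6914434-6914493 (plus) for ENO2, chr11:18394455-18394514 (plus) for LDHA, chrX:78104028-78104087 (plus) for PGK1, chr4:185396661-185396720 (plus) for ANKRD37 and chr12:6535156-6535215 (plus) for GAPDH. Of ACGTG, the printed pieces hold 2 matches each for LDHA, PGK1 and ANKRD37 and 1 match each for the others, with CACGTG counted once.

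Over windows of 300 bases, 250 before and 50 after a start, ACGTG on either strand was found for 18 of the 31 members with an entry (58.1%), against 24.9% of all 27305 genes. Members have more listed starts, and per window the shares were 40.0% of 55 and 21.4% of 35116. ACGTG was found for 11 of 17 enzymes and for 4 of 7 HIF targets. The E-box CACGTG, which also counts as ACGTG here, was found for 8 of the 31 members (25.8%), against 8.77% of all genes. The 27305 genes were not limited to those measured in these libraries. GCGTG on either strand was found for 18 of the 31 members (58.1%), against 40.6% of all genes, and one core or the other for 28 of 31 (90.3%), against 52.4% of all genes. Among the genes that stood lower, KDM3A holds GCGTG only, and P4HA2 and EGLN3 hold neither core in their windows. A match describes letters only, and VEGFA, NDRG1, BNIP3L and SLC2A3 were not matched to the table.

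ADAR2 alone against the control showed no shift of the HIF targets. Their median log2 ratio was 0.01, that of the enzymes 0.02 and that of all genes 0.00, and 0 of 9 targets lay in the lowest 20%. The targets that were lowest in the previous comparison were spread here: BNIP3 was at 1.06 times (1.03 to 1.08), NDRG1 at 1.03 times (1.0 to 1.05), P4HA1 at 0.907 times (0.883 to 0.931) and KDM3A at 0.956 times (0.930 to 0.983). The first 2 were above the control and the others below it, but NDRG1 and KDM3A changed sign with the GC trend described next removed. ANKRD37, with 319 reads in the ADAR2 library and 294 in the control, was at 1.25 times (1.06 to 1.47). It was the only member past 1.2-fold, so 1 of 34 was higher, beside 7.43% of all genes, and 0 were lower, beside 6.45%. None passed 1.5-fold, beside 1.26% of all genes. Most members are abundant, and fewer genes of that class were called. Among the 10362 genes of 10 CPM or more, 3.59% were higher and 4.02% lower by 1.2-fold, beside 0 and 0 of 32 members. Of such genes, 7 were lower and 2 higher by 1.5-fold. SLC2A1 was at 1.14 times (1.09 to 1.2), the next highest measured member. HIF1A at 0.897 times (0.868 to 0.928) and EGLN1 at 0.909 times (0.887 to 0.933) were among the lowest.

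In this comparison log2 ratios followed the GC content of the transcript, among the members as among all genes. Spearman's rho was 0.58 over the 34 members and 0.76 over 10198 genes of 10 CPM or more, where genes are not replicates and share the same pair of libraries. In the lowest decile of GC content, at a median of 36.8%, the median log2 ratio of all genes was -0.17, and HIF1A, whose GC content is 36.4%, was at -0.16. With the trend removed HIF1A was at -0.01, P4HA1 at -0.03, LDHA at -0.05 and PGK1 at -0.03, and the sign of 12 of 34 members changed. In both proteins against ADAR2 the relation was weaker, with rho of 0.36 over the members and 0.19 over all genes. There removal of the trend left P4HA1 at -0.29, BNIP3 at -0.28, ENO2 at -0.20 and SLC2A3 at -0.36, close to their uncorrected log2 ratios of -0.30, -0.29, -0.20 and -0.37.

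**Figure D4:**
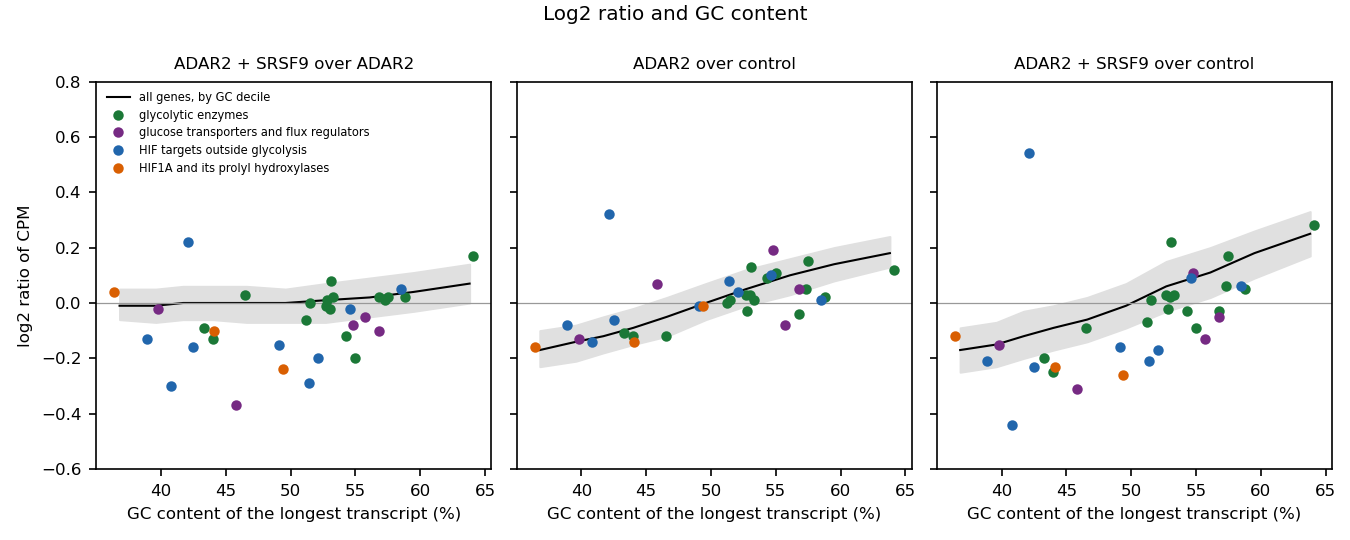
Log2 ratio of CPM against GC content of the longest transcript in percent for the 34 measured genes, 1 panel per comparison, over the median (line) and quartiles (grey) of 10198 genes by GC decile. The line climbs with GC content in both comparisons against the control and is nearly flat in ADAR2 and SRSF9 over ADAR2, where the blue points of the HIF targets lie mostly below it.

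Both proteins against the control shares a library with each comparison above and adds no independent evidence, and its values follow from the others. The medians were 0.01 for the enzymes and -0.17 for the HIF targets, or -0.09 and -0.13 with the GC trend removed. P4HA1 was lowest, with 59.96 CPM with both proteins and 81.3 CPM in the control, 0.738 times (0.715 to 0.761). SLC2A3 was at 0.809 times (0.736 to 0.888), and these 2 of 34 were lower by 1.2-fold, beside 12.7% of all genes. ANKRD37 at 1.46 times (1.23 to 1.73) and PFKL at 1.22 times (1.2 to 1.24) were the 2 members higher by 1.2-fold, beside 13.8% of all genes. With the GC trend removed PFKL had a log2 ratio of 0.02 in place of 0.28, and ANKRD37 of 0.64 in place of 0.54. None passed 1.5-fold, beside 3.99% of all genes. LDHA, with 1083 CPM against 1285 CPM, was at 0.843 times (0.837 to 0.850) and PGK1 at 0.869 times (0.860 to 0.878). Their transcripts have 44.0% and 43.3% GC. With the GC trend removed LDHA had a log2 ratio of -0.16 in place of -0.25, and PGK1 of -0.12 in place of -0.20.

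Other genes of the same pathways were examined as 3 further lists. Among hypoxia-induced genes that are no members (30 of 37 measured), the median log2 ratio in both proteins against ADAR2 was -0.07. In this list 1 gene was lower by 1.2-fold, beside 8.21% of all measured genes and 309 of the 12765 protein-coding ones. Of the 30 genes, 11 lay in the lowest 20% of all measured genes. Of the 26 at 10 CPM or more, 13 lay in the lowest 20% of such genes. The gene furthest from 0 was STC1, a secreted glycoprotein induced by hypoxia, at 5.03 CPM with both proteins and 6.35 CPM with ADAR2, 0.792 times (0.707 to 0.887). In ADAR2 against the control the list's median was -0.10, and -0.03 with the GC trend removed, with DDIT4, a hypoxia-induced inhibitor of mTORC1 signalling, furthest from 0 at 1.22 times (1.19 to 1.25). Other HIF pathway components (13 of 14 measured) had a median of 0.03 in both proteins against ADAR2. Of the 13, 2 lay in the lowest 20% of all measured genes and 0 in the highest 20%. Of the 12 at 10 CPM or more, 5 lay in the lowest 20% of such genes and 0 in the highest. ARNT, the partner of the HIF1A product, was furthest from 0 there at 0.889 times (0.860 to 0.919). CITED2, whose product competes with HIF for the coactivator p300, was furthest from 0 in both comparisons with the control. It stood at 0.808 times with both proteins (0.781 to 0.836) and at 0.874 times with ADAR2 (0.849 to 0.901).

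Other glycolysis genes (19 of 31 measured) had medians of -0.02 in both proteins against ADAR2 and 0.12 in ADAR2 against the control. PGAM4, an intronless copy of PGAM1, was furthest from 0 in the first at 0.764 times (0.730 to 0.8), ENO3, the muscle enolase, in the second at 1.31 times (1.21 to 1.41), and SLC2A8, the intracellular transporter GLUT8, in both proteins against control at 1.36 times (1.29 to 1.44). None of the 3 lists had a measured gene past 1.5-fold in any comparison, beside 1.26% to 3.99% of all measured genes.

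**Figure D5:**
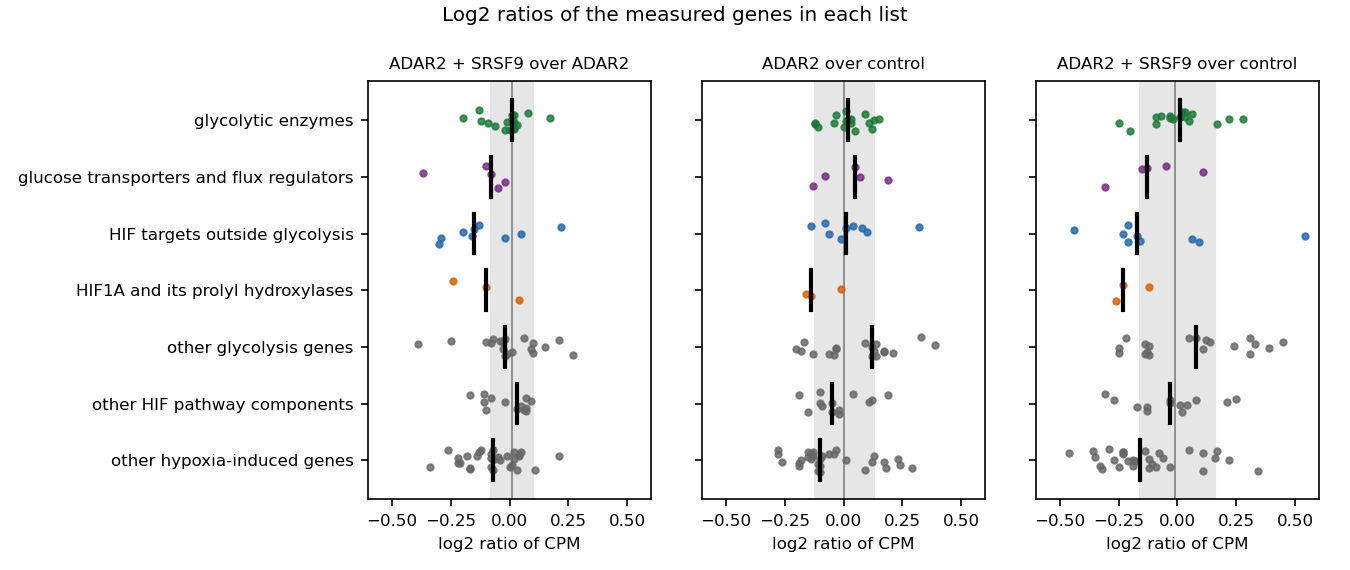
Log2 ratios of CPM of the measured genes in the 4 member groups (coloured) and the 3 further lists (grey), 1 panel per comparison, with the median of each list as a black bar and the interquartile range of all 16072 genes in grey. In ADAR2 and SRSF9 over ADAR2 the bar of the HIF targets lies at -0.15 and that of the other hypoxia-induced genes at -0.07, while the enzymes lie at 0.01.

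Many enzymes have processed pseudogenes, whose reads can be assigned to the wrong copy. The table held 106 rows named as pseudogenes of 14 members, 58 of them of GAPDH. Their reads came to 0.996% of those of their parents with both proteins, 1.36% with ADAR2 and 1.26% in the control. Summed, they stood at 0.721 times the ADAR2 level with both proteins (0.705 to 0.737), lower than any measured member. Lower levels there were common among rows not classed as protein-coding. Of all 16072 measured genes 1319 were lower by 1.2-fold, and only 309 of these were among the 12765 protein-coding genes. The share of pseudogene reads was highest for BNIP3, whose pseudogenes had 536 reads with both proteins and 1101 with ADAR2, or 7.20% and 8.65% of its own. Those of LDHA had 1814 and 3616 reads, or 1.75% and 2.28% of its own. For P4HA1, NDRG1, KDM3A and ENO2 no row bore such a name. How the counting treated reads that fit several copies is not given in the sources used here, and its part in these values was not tested.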

How the data were processed

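Per the labels, total RNA of HEK293T cells went into 3 libraries made with a directional kit. The submitters' processing notes list hg19 as build and, as tools, SAMtools, GATK, Picard and STAR. For the counting program and strand, no source used here gives an answer. The authors deposited raw read counts per gene, matched to samples by library code, with 1 row per gene identifier.

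TMM scaling was applied to library sizes (edgeR 4.0.16, R 4.3.3; factors 0.980 with both proteins, 1.01 with ADAR2 and 1.01 in the control). For log2 ratios, 0.5 reads, in proportion to library size, were added. A gene was called past 1.2-fold or 1.5-fold when its ratio reached that size and its 95% counting interval excluded 1. Exon lengths, transcript GC content and gene types came from GENCODE 29, matched on the identifier (51802 identifiers, all 35 members). GENCODE 29 is on another build than hg19 and gave no printed coordinates. Those of the printed promoter pieces are RefSeq's on GRCh38.p14. The GC trend was the median log2 ratio in 50 bins over 9594 protein-coding genes of 10 CPM or more, smoothed over 5 bins. Other steps used Python 3.11.15, numpy 2.4.6, pandas 2.3.3, scipy 1.17.1 and matplotlib 3.10.9. The calculation was checked on simulated counts. The 35 members, the further lists and the settings were chosen with earlier results of these data known. All 35 members could be named, and from each further list genes past 1.5-fold or else the one furthest from 0. Counting strand is unknown, so reads of overlapping genes may be mixed.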

Additional observations from a re-analysis of the deposited data

How the results depend on the processing

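Each list median was taken relative to the median of all genes, so that library scaling could not move it. The scalings tried (DESeq2 1.42.0 size factors, plain totals, upper quartile, TMM without mitochondrial genes, ADARB1 and SRSF9) therefore say nothing about it. For the HIF targets in both proteins against ADAR2 it was -0.16, and -0.17 to -0.11 with no GC trend, no filter, 10 CPM, a prior count of 5, means, a protein-coding background and, added after the data were seen, no members overlapped by other genes. The end at -0.11 came from means in place of medians, which also moved it to -0.0808 in both proteins against control, where the median was -0.16. ANKRD37 had the highest log2 ratio of the 9 targets in both comparisons, 0.22 and 0.54. Its part in the change was not tested. With the GC trend removed the enzymes lay at -0.0261 in ADAR2 against control and at -0.0775 in both proteins against control, in place of 0.02 and 0.01.

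Counts past 1.2-fold were small and moved. In both proteins against control, 2 lower and 2 higher became 6 and 1 with plain totals, and 1 and 1 with the GC trend removed, with 10 CPM or more, or with the interval wholly beyond 1.2-fold. That last rule left 0 of the 3 lower members in both proteins against ADAR2, so no member was 1.2-fold lower beyond counting error there. The 1 member higher in ADAR2 against control became 0 under that rule and with 10 CPM or more. A change of scaling moves the log2 ratios of all genes in a comparison by nearly the same amount. With plain totals the median log2 ratio of all genes in both proteins against control was -0.051 in place of -0.006. No called member changed sign. No paired analysis was possible because each group has 1 library, and for the same reason no replicate could be left out.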
